A study of Mus musculus with 6 samples.

Results

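The respiratory chain subunits described here are 63 nuclear genes, out of 18193 genes measured. They were picked by symbol, and the set was chosen with earlier results of these data known. Complex I genes are those named Ndufa, Ndufb, Ndufc, Ndufs or Ndufv with a number (34 genes). The others are Sdha to Sdhd of complex II (4), Uqcr genes of complex III (8) and Cox4 to Cox8 genes of complex IV (17). The 63 genes were read by 132 of the 45101 probe sets on the arrays, and the probe set with the highest mean stood for each gene. The samples were cells of the Isl1 lineage of mouse embryos at embryonic day 9, sorted for a yellow fluorescent protein that Cre recombinase, driven by Isl1, had switched on at the Rosa locus. The wild-type group had 3 arrays. The mutant group had 3 arrays of cells whose β-catenin allele carries loxP sites around exon 3, so that the same Cre leaves a stabilised protein. Recombination is limited to cells with an Isl1-Cre history, the number of embryos in each sample is not given in the sources used here, and p-values therefore reflect no more than the spread among these arrays. The series asks how Notch1, β-catenin and Isl1 act on cardiac progenitor fate, and the comparison is mutant against wild type.

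The respiratory chain sits in the inner mitochondrial membrane. Complex I (NADH dehydrogenase) and complex II (succinate dehydrogenase) pass electrons to coenzyme Q, complex III (the cytochrome bc1 complex) passes them to cytochrome c, and complex IV (cytochrome c oxidase) hands them to oxygen, while complexes I, III and IV pump protons that ATP synthase then uses. A small set of core subunits of complexes I, III and IV is encoded in mitochondrial DNA, and the remaining subunits are nuclear. Several complex IV subunits exist as a widely expressed isoform and an isoform restricted to muscle, testis or lung, and Cox4i2 is known as an isoform induced by low oxygen. The early embryonic heart relies strongly on glycolysis, and respiratory capacity matures as cardiomyocytes differentiate.

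The arrays correlated across genes at 0.979 to 0.989. On the first principal component, mutant replicate 1 lay at 1.21, between the wild-type arrays (−21.6 to −20.5) and the other mutant arrays (29.4 and 33.0). Isl1 read 9.24, 9.36 and 9.77 in wild type against 8.72, 8.61 and 7.49 in mutant cells. Of 9 cardiac progenitor genes listed, Isl1 among them, 5 were lower and 4 higher in mutant cells (median −0.29). At an unadjusted p under 0.05 in limma's test, 3 were lower (Tbx20, Isl1 and Nkx2-5) and 0 higher, against 4.84% and 6.76% of all genes. Tbx20 stood at −0.94 and Gata4 at −0.87. The 4 higher genes were Fgf8 (0.47), Tbx1 (0.41), Mef2c (0.03) and Fgf10 (0.01). The cardiac factor Nkx2-5 was near or below the background level of 4.85, a bound taken from bacterial control probe sets, at 4.63 to 4.95 in wild type and 4.17 to 4.56 in mutant cells. Embryonic globin Hbb-bh1, a marker of primitive red cells, read 13.53 to 13.94 over the 6 arrays. All 6 measured primitive erythroid genes were lower in mutant cells. Relative to wild type they averaged 0.17, 0.11 and −0.29 in wild type against −0.44, −0.86 and 0.30 in mutant cells, so the groups overlapped. The part of red cells in the subunits' values was not tested. In bulk samples, fewer cells of a type and less RNA per cell cannot be told apart.

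Most respiratory chain subunits stood at nearly the same level in mutant and wild-type cells. The median difference (mutant minus wild type, log2) was −0.02 over the 63 genes and −0.03 over all 18193 genes, 36 subunit genes were lower and 27 higher, and 47 differed by less than 0.2. No subunit passed limma's test after Benjamini-Hochberg adjustment over all genes. Over all genes 0% were called lower and 0.066% higher (12 genes), so the subunits' count of 0 in either direction is close to the background. At an unadjusted p under 0.05, 1 subunit was lower (Cox7c; 1.59% of subunits, against 4.84% of all genes) and 5 were higher (Cox4i2, Cox6b2, Cox7a2l, Ndufa6 and Ndufb4; 7.94%, against 6.76% of all genes). The mutant and wild-type values did not overlap for 3 lower subunits (4.76%, against 9.18% of all genes) and for 6 higher ones (9.52%, against 8.64%). The shares of higher subunits are near those of all genes, and the shares of lower subunits are below them. For 37 subunits the 95% interval of the difference, from limma's moderated standard error (SE), lay within 0.5 of 0 on the log2 scale, and for 57 it lay within 1, so for these a 2-fold difference in either direction is outside the interval.

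**Figure D1:**
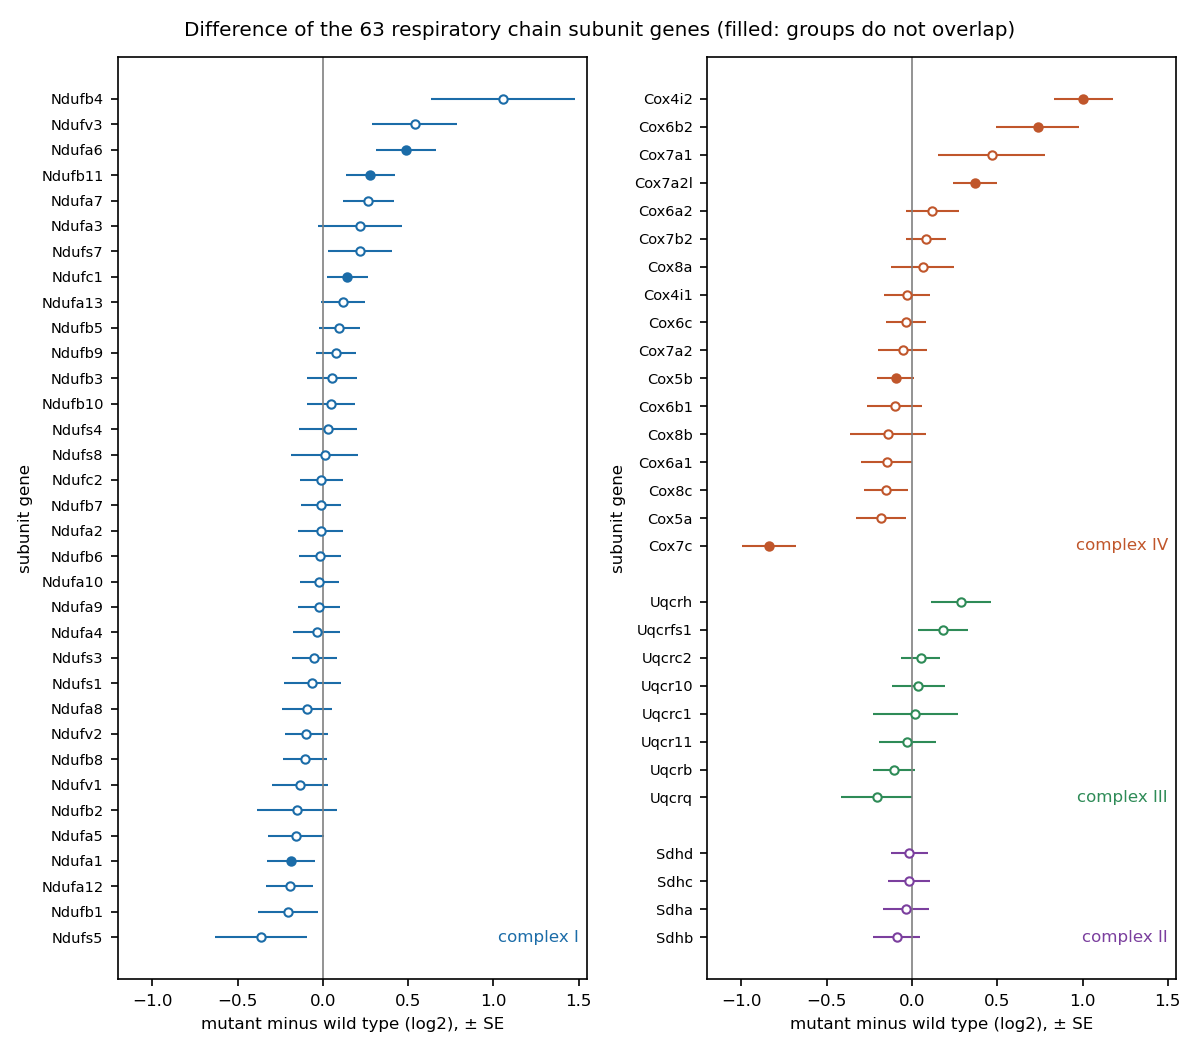
Mutant minus wild-type difference (log2, x axis) of each of the 63 subunit genes (y axis), with bars for the moderated SE; filled points are genes whose 3 mutant values do not overlap the 3 wild-type values. Most points lie within 0.2 of 0, with Cox4i2 (2.01-fold) and Cox7c at −0.84 farthest out among the filled points.

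Complex IV held the widest contrasts. Its 17 genes had a median difference of −0.04, with 10 lower and 7 higher. They comprise 9 widely expressed isoforms, 7 restricted isoforms and Cox7a2l, a factor that helps join complexes III and IV into supercomplexes; this grouping was made after the values had been seen. Of the widely expressed isoforms 8 of 9 had lower values (median −0.10, from −0.84 to 0.06), and of the restricted isoforms 5 of 7 had higher values (median 0.12, from −0.15 to 1.0). Taken relative to wild type, the widely expressed isoforms averaged −0.14, 0.09 and 0.05 in wild type against −0.10, −0.25 and −0.12 in mutant cells, so the groups overlapped. The restricted isoforms averaged −0.12, 0.19 and −0.07 against 0.28, 0.30 and 0.32, with no overlap. This separation came from Cox4i2 and Cox6b2: without them the other 5 averaged −0.14, 0.19 and −0.05 against 0.19, 0.04 and −0.01, and the groups overlapped. Markers of endothelium were higher beside them, in 8 of 8 genes (median 0.85), with a summed level of 10.59 to 11.35 in wild type and 11.47 to 11.83 in mutant cells, and their part in the isoform values was not tested.

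Cox4i2, the isoform of subunit 4 known to be induced by low oxygen, read 6.15, 6.34 and 6.04 in wild-type replicates 1, 2 and 3, against 6.89, 7.44 and 7.22 in the mutant replicates. All mutant values lay above all wild-type values, from 6.18 ± 0.15 to 7.18 ± 0.28 (log2, mean ± SD, n = 3 each). The difference was 1.0 (SE 0.17, 95% interval 0.60 to 1.41), or 2.01-fold, and did not pass over all genes (adjusted p = 0.140). Over all alternatives run, the difference lay between 0.88 (without mutant replicate 2, adjusted p = 0.348) and 1.15 (without mutant replicate 1, adjusted p = 0.0488, with 92 genes called in all), and the adjusted p was at most 0.359. It passed only without mutant replicate 1. Its widely expressed counterpart Cox4i1 read 11.90, 12.16 and 11.99 against 12.01, 11.84 and 12.10, and its difference of −0.03 had a 95% interval of −0.34 to 0.28.

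Cox6b2, the isoform of subunit 6b best known from testis, read 7.80, 8.17 and 7.84 in wild type and 8.25, 8.58 and 9.19 in mutant cells. The groups did not overlap, though mutant replicate 1 lay only just above wild-type replicate 2. The difference was 0.74 (SE 0.24, adjusted p = 0.339), and it was 0.48 without mutant replicate 3. The widely expressed Cox6b1 read 12.33, 12.67 and 12.56 against 12.51, 12.17 and 12.58, a difference of −0.10. Cox7a2l read 12.21, 12.28 and 12.44 in wild type and 12.55, 12.73 and 12.77 in mutant cells. All 3 Cox7a2l probe sets separated the groups, with differences of 0.37 to 0.50, and the gene's own difference was 0.37 (SE 0.13, adjusted p = 0.361).

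The heart and skeletal muscle isoforms went no single way. Cox7a1 read 4.66, 5.61 and 5.11 in wild type and 6.10, 5.09 and 5.59 in mutant cells, and the widely expressed Cox7a2 read 12.23, 12.63 and 12.44 against 12.45, 12.29 and 12.40. Cox6a2 read 7.03, 7.37 and 7.43 against 7.45, 7.51 and 7.22, and Cox8b read 5.92, 6.24 and 5.38 against 5.73, 5.85 and 5.53. The groups overlapped for all of these genes, with differences of 0.47, −0.05, 0.12 and −0.14 in that order. The testis isoforms Cox8c and Cox7b2 stood at −0.15 and 0.08. Cox7b2 was the only subunit whose mean lay below the background level, at 2.73 in wild type and 2.81 in mutant cells.

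When each restricted isoform was set against its widely expressed partner on the same array, the log2 difference between Cox4i2 and Cox4i1 was 1.03 higher in the mutant arrays, and that between Cox6b2 and Cox6b1 was 0.84 higher. In both pairs every mutant array lay above every wild-type array, which gives an exact two-sided permutation p of 0.1, the smallest that 3 against 3 arrays allow (0.25 after Benjamini-Hochberg adjustment over the 5 pairs). The pair of Cox7a1 and Cox7a2 gave 0.52 (exact p = 0.2), that of Cox6a2 and Cox6a1 0.27 (exact p = 0.3) and that of Cox8b and Cox8a −0.20 (exact p = 0.6). The widely expressed Cox6a1 read 12.10, 12.49 and 12.33 in wild type and 12.11, 12.03 and 12.33 in mutant cells, and Cox8a read 9.49, 10.15 and 9.95 against 9.92, 9.82 and 10.04, so that both overlapped between the groups.

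**Figure D2:**
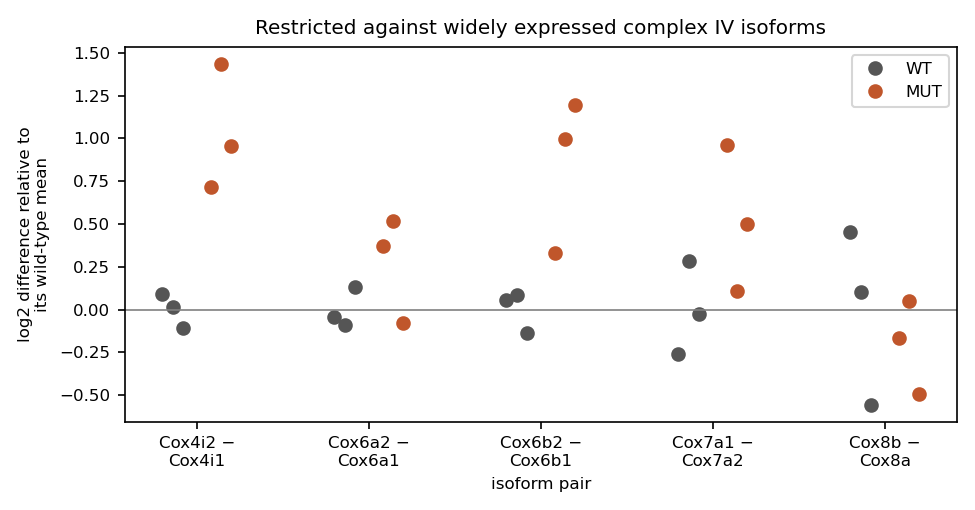
Log2 difference between the restricted and the widely expressed isoform of 5 complex IV subunits (x axis) on each array, relative to the wild-type mean of that pair (y axis); grey points are the 3 wild-type arrays and orange points the 3 mutant arrays. The mutant arrays stand above the wild-type arrays for the Cox4i2 pair (0.71 to 1.43) and the Cox6b2 pair (0.33 to 1.19), and the groups overlap for the other pairs.

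Cox7c, a small membrane-spanning subunit with no restricted isoform in this set, was the subunit with the lowest difference. It read 7.22, 7.20 and 7.59 in wild type and 6.67, 6.47 and 6.36 in mutant cells, with no overlap. The difference was −0.84 (SE 0.16, 95% interval −1.21 to −0.47), a mutant level 0.559 times that of wild type, and did not pass over all genes (adjusted p = 0.157). A second, dimmer Cox7c probe set gave −0.65 with overlapping groups. The first averaged 6.92 and the second 5.37, while the other widely expressed complex IV subunits averaged from 9.90 (Cox8a) to 13.35 (Cox5b). Whether these Cox7c probe sets read its main transcript was not tested. Cox5b, which binds zinc on the matrix side, read 13.37, 13.37 and 13.44 against 13.32, 13.30 and 13.27. Its groups did not overlap, its difference was −0.10 (SE 0.11, adjusted p = 0.753), and its 6 probe sets ran from −0.10 to 0.37, the positive values coming from its 2 dimmest probe sets. The other widely expressed subunits Cox5a (−0.18) and Cox6c (−0.04) had overlapping groups.

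**Figure D3:**
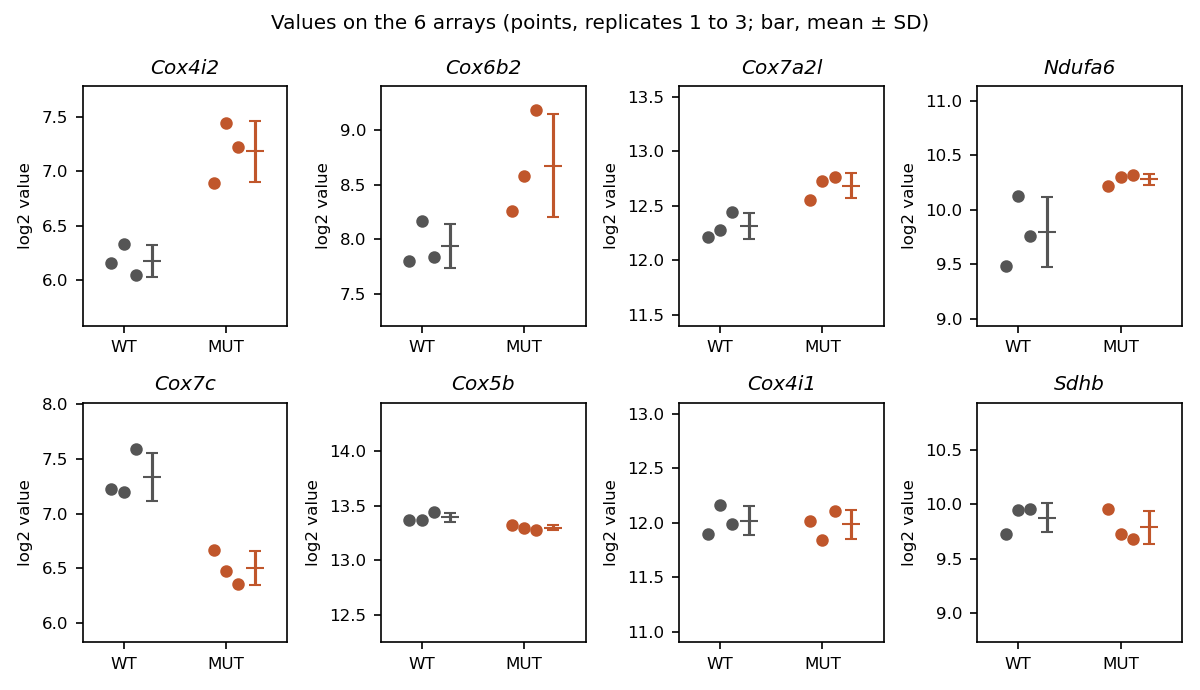
Log2 values (y axis) of 8 subunit genes on the 3 wild-type and 3 mutant arrays (x axis), with each group's mean and SD to the right of its points; all panels span the same range of 2.2 log2 units. Cox4i2, Cox6b2, Cox7a2l and Ndufa6 stand higher and Cox7c lower on every mutant array, Cox5b is apart by a small margin, and the groups overlap for Cox4i1 and Sdhb.

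Complex I had a median difference of −0.01 over 34 genes, 19 lower and 15 higher. The nuclear-encoded catalytic core, which carries the flavin and the iron-sulphur clusters, was measured by 6 of its 7 genes: Ndufs1 (−0.06), Ndufs3 (−0.05), Ndufs7 (0.22), Ndufs8 (0.01), Ndufv1 (−0.14) and Ndufv2 (−0.10). All 6 overlapped between the groups. The other 28 genes were taken as accessory subunits, Ndufa4 among them by its symbol. They had a median of −0.01 and a range from −0.36 (Ndufs5) to 1.06 (Ndufb4). The Ndufs5 probe set read 8.34 on average. A brighter one that names Ndufs5 together with Ndufs5-ps, and so lay outside the rule, read 11.33 with a difference of −0.04.

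Among the accessory subunits Ndufa6 had the smallest p. It read 9.49, 10.13 and 9.76 in wild type and 10.22, 10.30 and 10.32 in mutant cells, a difference of 0.49 (SE 0.18, adjusted p = 0.374). The SD was 0.05 among the mutant arrays and 0.32 among the wild-type arrays. Ndufb11 read 11.69, 12.12 and 12.01 against 12.26, 12.23 and 12.16, and Ndufc1 read 11.97, 12.16 and 12.15 against 12.27, 12.24 and 12.21. Neither overlapped between the groups, with differences of 0.28 and 0.14. Without wild-type replicate 1, the lowest array for all 3 genes, the differences of Ndufa6, Ndufb11 and Ndufc1 were 0.33, 0.15 and 0.08.

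Ndufa1 read 11.47, 11.58 and 11.51 in wild type and 11.44, 11.09 and 11.47 in mutant cells. It was the only complex I subunit with every mutant value below every wild-type value, and only just. Mutant replicate 3 read 11.4695 and wild-type replicate 1 read 11.4733. The Ndufa1 difference of −0.19 became −0.07 without mutant replicate 2. Ndufa1 and Ndufb11 lie on the X chromosome. Sex-linked transcripts were uneven between the arrays, with Xist at 5.46, 12.63 and 12.79 in wild type and 12.13, 7.54 and 12.44 in mutant cells. The Y-linked Kdm5d read 9.84, 2.82 and 3.52 in wild type against 8.67, 9.92 and 9.08 in mutant cells, and Eif2s3y and Uty had the same pattern (differences of 3.59 and 2.28), so Y-linked RNA was high on all 3 mutant arrays and on 1 wild-type array. The part of this in the differences of Ndufa1 and Ndufb11 was not tested.

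Ndufb4 had the highest difference of all subunits, 1.06 (SE 0.42, adjusted p = 0.405), at a low level: it read 4.59, 5.52 and 4.47 in wild type and 6.26, 6.46 and 5.02 in mutant cells, with overlap, and its wild-type mean was 4.86. A brighter probe set that names Ndufb4 together with Ndufb4b and Ndufb4c, and so lay outside the rule, read 10.06 on average with a difference of 0.06. Of the 9 such probe sets that name a subunit with another gene, the differences ran from −0.39 (Ndufa11 and Ndufa11b) to 0.10 (Ndufs6 and Ndufs6b). Ndufv3, an accessory subunit next to the flavin-bearing core, stood at 0.54 with a spread of 0.49 (SD) among the wild-type arrays. Ndufa4, named for complex I but now known as a complex IV subunit, stood at −0.04.

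Complexes II and III had narrower ranges of differences than complexes I and IV. In complex II the differences were −0.09 for Sdhb, the iron-sulphur subunit, −0.04 for Sdha, the flavoprotein, and −0.02 each for the membrane anchors Sdhc and Sdhd, and all 4 intervals lay within 0.5 of 0. Sdhb, which had the smallest p, read 9.73, 9.95 and 9.96 in wild type and 9.96, 9.73 and 9.68 in mutant cells. In complex III the median was 0.03, with 5 genes higher and 3 lower. The hinge protein Uqcrh read 11.35, 11.78 and 11.76 against 12.04, 11.67 and 12.04, a difference of 0.29 (SE 0.18, adjusted p = 0.552) in which the groups overlapped. The Rieske iron-sulphur protein Uqcrfs1 stood at 0.18, the core proteins Uqcrc1 and Uqcrc2 at 0.02 and 0.05, and Uqcrq at −0.21.

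The subunits of complexes I, III and IV varied from array to array by more than they differed between the groups. Averaged over the 63 genes and taken relative to wild type, they stood at −0.15, 0.13 and 0.02 in wild-type replicates 1, 2 and 3, against 0.09, −0.01 and 0.05 in the mutant replicates. Wild-type array 1 gave the lowest of the 6 values for 28 of the 63 subunits (44.4%), against 17.7% of all genes, and wild-type array 2 the highest for 22 (34.9%), against 16.8%. The same order of the wild-type arrays held for the means of complex I (−0.16, 0.14 and 0.02), complex III (−0.20, 0.15 and 0.05) and complex IV (−0.13, 0.13 and 0.00), while complex II stayed between −0.10 and 0.06 on all 6 arrays. Markers of other cells were also uneven among these arrays. Of 12 cardiomyocyte genes 10 were lower and 2 higher in mutant cells (median −0.35). Relative to wild type, their mean was −0.21, 0.30 and −0.09 in wild type against −0.39, −0.27 and −0.14 in mutant cells, with overlap. Summed, their level was 13.84 to 14.18 in wild type and 13.60 to 13.74 in mutant cells, without overlap. Of 7 visceral endoderm genes 5 were lower and 2 higher (median −0.53). Their mean was −1.43, 0.99 and 0.44 in wild type against −1.87, −0.30 and 0.24 in mutant cells. Their summed level was 8.90 to 12.44 and 8.74 to 11.21, with overlap. The part of these 2 marker lists in the subunits' values was not tested.

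**Figure D4:**
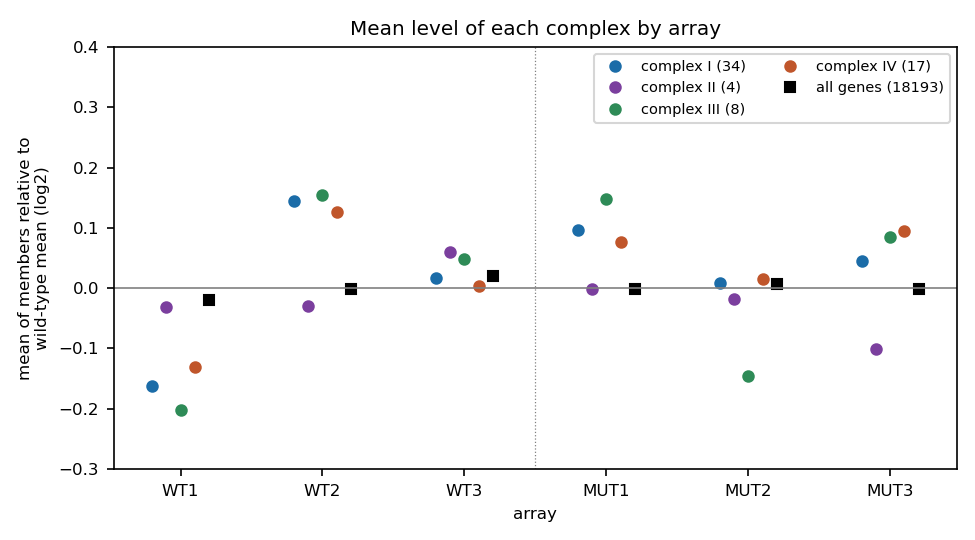
Mean level of the subunits of each complex on each array, relative to the wild-type mean of each gene (log2, y axis), beside the same mean over all 18193 genes (squares). Complexes I, III and IV are lowest on wild-type array 1 (−0.20 to −0.13), apart from all genes at −0.02, and complex II stays between −0.10 and 0.06 on the 6 arrays.

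Other genes of the pathway were taken from lists chosen by function, with earlier results of these data known. Of 17 ATP synthase genes 13 had lower values (median −0.09), and none passed over all genes; at an unadjusted p under 0.05, 1 was lower (against 4.84% of all genes), Atp5g1, which encodes the c ring (9.33, 9.97 and 9.79 against 9.28, 9.14 and 9.37, a difference of −0.43). ND5, the only mitochondrially encoded subunit measured, stood at −0.08. Of 18 electron carrier and coenzyme Q genes 9 were lower and 9 higher, and at an unadjusted p under 0.05, 3 were lower and 0 higher, against 4.84% and 6.76% of all genes. Coq10b, a coenzyme Q binding protein, read 9.15, 9.12 and 9.22 against 8.58, 8.70 and 8.66, a difference of −0.52 (SE 0.11, adjusted p = 0.214). Cytochrome c (Cycs) read 12.50, 12.62 and 12.42 against 12.41, 11.66 and 11.87, and Pdss2, of coenzyme Q side-chain synthesis, stood at −0.49.

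Assembly factors, which build the complexes without staying in them, had lower values for 30 of 41 genes (median −0.13, against −0.03 over all genes), and none passed. Relative to wild type the list averaged −0.04, 0.03 and 0.01 in wild type against −0.02, −0.17 and −0.16 in mutant cells, so mutant replicate 1 lay within the wild-type range. On the mutant arrays neuron markers stood in a like order, which the first principal component over all genes shared. On the wild-type arrays the order of the markers differed from that of the assembly factors. Of the neuron markers 6 of 7 were lower (median −0.72). They had a mean of −0.31, −0.42 and 0.73 in wild type against 0.10, −1.38 and −1.09 in mutant cells. Summed, these markers stood at 11.91 to 13.03 in wild type and 11.24 to 12.53 in mutant cells. Their part in the assembly factors' values was not tested. At an unadjusted p under 0.05, 2 of the 41 were lower, a share near the 4.84% of all genes. Coa7, an assembly factor, read 8.67, 8.64 and 8.82 against 8.14, 8.20 and 8.07 (difference −0.58, adjusted p = 0.188), and Cox19, of copper delivery, stood at −0.59 (adjusted p = 0.241). Sdhaf1, of complex II, stood at −0.33. Among 11 genes of mitochondrial import and outer membrane 7 were lower (median −0.15), with Tomm22 at −0.31, Hspd1 at −0.23 and Vdac3 at −0.22. Among 17 regulators of mitochondrial biogenesis 8 were lower and 9 higher. Nrf1, the activator of many subunit genes, read 9.89, 9.69 and 9.80 against 9.07, 9.47 and 9.30 (−0.51, adjusted p = 0.276). The coactivator Ppargc1b stood at 0.85 (adjusted p = 0.390), with wild-type values near the background level of 4.85. It read 5.47, 5.11 and 4.92 in wild type against 5.57, 6.76 and 5.70 in mutant cells. The polymerase subunit Polg2 stood at 0.45.

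Of 6 other factors that bind or regulate the chain, 4 had higher and 2 lower values (median 0.25), and none passed. Ndufa4l2, a paralogue of Ndufa4 known to be induced by low oxygen and left out of the 63 genes, read 6.09, 6.23 and 6.19 in wild type and 7.30, 8.11 and 7.58 in mutant cells. Its difference was 1.49 (SE 0.21, adjusted p = 0.0881), with no overlap, and did not pass. Higd1a, a hypoxia-induced protein that binds the respiratory chain, read 10.73, 11.34 and 11.20 against 11.64, 11.60 and 12.05 (0.67, adjusted p = 0.300), and Lonp1, the protease known to degrade Cox4i1 protein at low oxygen, stood at 0.32 with overlapping groups. Higd2a (0.17), Chchd4 (−0.12) and Ndufab1 (−0.12) overlapped as well. Of the 22 genes of the tricarboxylic acid cycle and pyruvate entry 13 were lower and 9 higher (median −0.08), with the pyruvate dehydrogenase kinases Pdk3 and Pdk1 at 0.51 and 0.97 and the dehydrogenase subunit Dld at −0.43. All 14 low oxygen response genes were higher (median 1.14), and 3 of them passed over all genes, with Ndrg1 at 3.46, Pfkp at 2.65 and Adm at 1.84. Relative to wild type the list averaged 0.96, 1.53 and 1.56 on the mutant arrays. This list was chosen with its direction in these samples known, so it is not independent evidence of it. Mutant replicate 1, the lowest mutant array for this list, was also the lowest for Cox4i2 and Ndufa4l2. The same array was the lowest for Cox6b2 and Cox7a2l too, and it lay nearest wild type on the first principal component over all genes. The part of the low oxygen response in the values of Cox4i2 and Ndufa4l2 was not tested.

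Some promoters of the subunit genes held short sequence cores known from mitochondrial genes, and most lacked any given one of the NRF-1, ETS and YY1 cores. RefSeq (GRCm38.p6) promoter stretches, from 250 bases before to 50 after the start, were found for 51 of the 63 genes (53 stretches), among them neither Cox4i2 nor Cox4i1. The NRF-1 core GCGCANGCG, on either strand, was in 12 of 53 (22.6%), against 6.25% of all 32851 stretches. The ETS core CCGGAAG was in 11 (20.8%, against 8.86%) and the YY1 core AANATGGC in 11 (20.8%, against 6.05%), all 11 of them complex I stretches. The low oxygen element cores ACGTG and GCGTG were in 13 (24.5%, against 19.6%) and 29 (54.7%, against 32.4%). Subunit stretches were richer in G and C (median 58.3%, against 52.7%), and the part of base composition in these shares was not tested; a match is a description of the letters only.

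The 250 bases before the start of 3 complex IV genes are shown. Cox6a1 was picked as a widely expressed subunit that holds these cores. Cox7c, also widely expressed, and Cox6b2 have the lowest and the highest difference among complex IV genes with a stretch. Cox6a1 does not stand for its group. Of 12 complex IV stretches 1, that of Cox6a1, held an NRF-1 core (8.33%, against 6.25% of all stretches) and 3 an ETS core (25%, against 8.86%). Of the 7 widely expressed ones, 1 held an NRF-1 core and 3 an ETS core. Capitals mark the cores: in Cox6a1 (chr5:115348959-115349208, minus strand) NRF-1 cores lie at 3 places, of which those at 162 to 154 and 161 to 153 bases before the start overlap on opposite strands and the third lies at 117 to 109, and an ETS core lies at 16 to 10. Cox7c (chr13:86046796-86047045, minus strand) and Cox6b2 (chr7:4753095-4753344, minus strand) hold none of the 5 cores in this window.
Cox6a1: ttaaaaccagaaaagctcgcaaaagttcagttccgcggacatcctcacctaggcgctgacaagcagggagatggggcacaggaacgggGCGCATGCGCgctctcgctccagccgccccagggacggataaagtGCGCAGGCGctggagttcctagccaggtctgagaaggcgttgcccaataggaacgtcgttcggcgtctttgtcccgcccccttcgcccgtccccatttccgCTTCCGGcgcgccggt
Cox7c: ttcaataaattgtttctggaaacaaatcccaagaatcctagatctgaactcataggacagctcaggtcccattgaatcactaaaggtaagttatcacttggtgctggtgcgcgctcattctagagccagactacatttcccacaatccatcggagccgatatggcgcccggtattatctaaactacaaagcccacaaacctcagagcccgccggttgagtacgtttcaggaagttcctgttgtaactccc
Cox6b2: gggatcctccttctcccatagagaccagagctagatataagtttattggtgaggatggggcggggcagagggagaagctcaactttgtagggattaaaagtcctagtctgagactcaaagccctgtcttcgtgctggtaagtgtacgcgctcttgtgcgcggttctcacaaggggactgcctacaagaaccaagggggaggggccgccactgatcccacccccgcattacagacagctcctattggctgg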

How the data were processed

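The authors deposited log2 values of 45101 probe sets on 6 Affymetrix arrays; that they are log2 rests on their range (1.89 to 15.07). Per the labels' protocols, Trizol-extracted RNA was amplified with WT-Ovation Pico and labelled with biotin. How background, summarisation and normalization were handled is not given in the sources used here. Array medians lay between 6.47 and 6.50 and sorted values differed by an SD of at most 0.0693 at any rank, so the arrays were not rescaled; a shift of most genes one way would then be lost. The number of arrays limits the precision.

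Probe sets that name a single gene (34945) took their names from the platform annotation in GEO, and 34741 of them matched a RefSeq gene, whose current symbol was used; no subunit's symbol changed. The 932 probe sets naming several genes, 9160 unnamed and 64 control probe sets were left out. The background level, 4.85, was set at percentile 95 of 27 bacterial controls' mean values. Mutant and wild type were compared with limma 3.58.1 in R 4.3.3 (lmFit, eBayes, group as the only term, two-sided; 3.45 prior and 4 residual degrees of freedom); p-values were adjusted by Benjamini-Hochberg across 18193 genes, with 0.05 as the threshold. The fit was tested on simulated data. Genes shown on all arrays were, by rule, up to 6 non-overlapping subunits with the smallest p in each direction, both isoforms of 5 pairs, the smallest p in complexes I to III, and members whose probe sets differ in sign with an unadjusted p under 0.05 (none); 3 genes with the smallest p were named from each other list. Any subunit may be named with its difference; the array values of Ndufb4 were added after they were seen. The subunits and lists were chosen with earlier results of these data known. The alternatives were replicate block, quantile normalization, median centring, a filter on dim genes, other choices of probe set, another prior, array weights, Ndufa4 in complex IV and leaving out each array. Replicate numbers did not pair the arrays.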

Additional observations from a re-analysis of the deposited data

How the results depend on the processing

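No subunit was called over all genes under any of the alternatives run, apart from Cox4i2 (1 called higher) without mutant replicate 1. With single arrays left out, the number of subunits called higher ran from 0 to 1, the number lower at an unadjusted p under 0.05 from 1 to 3, and the number higher from 1 to 5, lowest without wild-type replicate 1. The number with groups apart ran from 4 to 10 for lower subunits (10 without wild-type replicate 1, 7 without mutant replicate 1) and from 7 to 10 for higher ones; with 2 against 3 arrays more genes are apart by construction. With quantile normalization of all arrays, 2 lower and 6 higher subunits had groups apart. The medians of the 4 complexes moved by less than their spread between replicates in every alternative run for them. Of 283 values of the 19 named subunits under 15 alternatives, 271 kept their sign. The other 12 belonged to genes that differed by less than 0.2: Cox5b turned with the most variable probe set (0.37) and the mean of all probe sets (0.03), and Cox8a with both (−0.30 and −0.06) and without wild-type replicate 1 (−0.13). Cox4i1 turned under 3 alternatives and Cox6a2, Cox6b1, Cox7a2 and Cox8b under 1 each, to between −0.00 and 0.06. With the replicate block 1 subunit was lower and 6 higher at an unadjusted p under 0.05, and 0 of all genes passed after adjustment; same-numbered arrays deviated together at correlations of 0.11, −0.08 and −0.02, so the numbers did not pair them. All genes called numbered 12, and 10 with quantile normalization, 6 with median centring, 1 with the most variable probe set, 1 with the mean of all probe sets and 92 without mutant replicate 1.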
